A study of Mus musculus with 18 samples.

Results

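The 8 genes described here encode proteins of the red-cell membrane and of the spectrin skeleton beneath it. They were chosen by name for their function: Slc4a1, Rhag and Rhd, which span the membrane, Ank1 and Epb42, which tie the skeleton to it, and Epb41, Sptb and Tmod1, which belong to the skeleton itself. They are 8 of the 20683 genes in the deposited count table, where they fill 24 feature lines (leader, coding sequence and 3′ untranslated region, UTR, of each gene), and 7 of them hold 38 of the 9025 deposited harringtonine positions.

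The cells were mouse erythroblasts of the strain FVB/n x C57BL/6 and the genotype Trp53 -/-, taken from fetal liver and grown with erythropoietin, stem cell factor and dexamethasone; untreated and treated cells alike lacked p53. Tunicamycin, an inhibitor of N-linked glycosylation, was given at 2.5 µg/ml for 1.5 h to bring about phosphorylation of the initiation factor eIF2, and was compared with no treatment. Each condition was measured in 3 kinds of library, with 3 libraries in each of the 6 groups: total RNA, ribosome footprints after cycloheximide (100 µg/ml for 5 min), which holds ribosomes where they are, and ribosome footprints after harringtonine (2 µg/ml), which holds them at start sites. The labels do not say whether libraries of a group came from separate cultures or animals, so p-values measure the spread between these libraries, which may be technical.

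The red cell keeps its shape through a net of spectrin tetramers laid under the lipid bilayer. The net is held from above at ankyrin, which binds the anion exchanger band 3, and at junctions where short actin filaments, spectrin and the protein encoded by Epb41 meet. Erythroid precursors make these proteins in large amounts, and inherited defects of several of them cause spherocytosis or elliptocytosis.

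RNA libraries held 12883350 to 48992797 reads. Cycloheximide libraries held 6415127 to 6652042 coding (CDS) footprints in untreated cells and 4531945 to 5086129 CDS footprints after tunicamycin. The stress genes Atf4 and Ddit3 rose in CDS footprints by 2.18 ± 0.11 and 2.45 ± 0.23 (log2 ± SE). Of the erythroid markers, Gata1, Klf1, Tal1, Epor, Alas2 and Tfrc lay between 181 and 1335 counts per 1000000 reads (CPM) of RNA in every library, while 4 globin genes of that list stood at 0 in the table. None of the macrophage, neutrophil and monocyte, hepatocyte, endothelial and stromal or muscle markers reached 5 CPM. Muscle also uses Ank1, Sptb and Tmod1, and its 5 markers summed to 0.000 to 0.143 CPM in untreated and 0.206 to 0.484 CPM in treated libraries. Of the 6 megakaryocyte markers only Gp5 (mean 100.5 CPM) reached a mean of 5 CPM, and Ppbp was at 0. They summed to 113 to 119 CPM untreated and 94.4 to 104 CPM after tunicamycin. Of the 4 mast cell and basophil markers, none at 0, only Ms4a2 (mean 138.9 CPM) reached a mean of 5 CPM. These summed to 105 to 169 CPM untreated and 107 to 172 CPM after tunicamycin. Whether such cells were present, or had a part in the results below, was not tested. In such bulk libraries fewer cells of a type and less RNA per cell cannot be told apart.

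Harringtonine is used to catch initiating ribosomes, and the place of its reads beside an ATG can be read from sequence. Not every position lies near a gene's start, as described for Ank1 and Sptb below. RefSeq promoter windows (GRCm38.p6, from 250 bases before to 50 after a start site) matched 6 of the 8 members, not Slc4a1 or Ank1. Among the members and 32 other genes of the red-cell membrane and skeleton, 3 genes had a harringtonine position 12 or 13 bases upstream of an ATG inside such a window. Each is printed 5′ to 3′ from the harringtonine position, with the ATG in capitals, because it shows how the reads sit against that ATG.
Rhag: ctctgctgcagtcATGaggttcaaattccc
Kcnn4: tttgcccacgtggATGaactcttcttcctt
Icam4: cgggctttgtgccATGgagtctgcccttct
The Rhag stretch lies at chr17:40811163-40811192 on the forward strand, Kcnn4 (a calcium-gated potassium channel) at chr7:24370124-24370153 and Icam4 (a blood-group adhesion protein) at chr9:21029441-21029470, both forward. In all 3 the ATG begins 13 bases from the position, but they were picked for an ATG at 12 or 13 bases. Over all genes, 14.2% of 847 positions with sequence to that point had an ATG at 13 bases and 10.4% of 875 had one at 12 bases. The share was 0.336% at 11 bases and 0.243% at 14. It ran from 0.521% (8 bases) to 3.73% (1 base) at 0 to 10 bases. At 15 to 30 bases it ran from 0.00% (17 bases) to 0.891% (27 bases). A match of letters is a description and does not show that the ATG is used.

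Before treatment, coding footprints of most members were high for their RNA. The ratio of CDS footprint CPM to RNA CPM in untreated cells was 2.69 ± 0.17 for Sptb (β-spectrin), 2.34 ± 0.13 for Rhag, the Rh-associated ammonia channel, 2.10 ± 0.25 for Tmod1, which caps the pointed ends of actin filaments, and 2.07 ± 0.18 for Rhd, the carrier of the Rh blood-group antigens (SD, n = 3). It was 1.74 ± 0.12 for Ank1 (ankyrin), 1.65 ± 0.17 for Epb42, which binds band 3 and ankyrin, and 1.44 ± 0.16 for Slc4a1 (band 3). Among neighbours in this order, Rhag and Tmod1, Tmod1 and Rhd, and Ank1 and Epb42 differed by less than the larger SD of the pair. Epb41 stood lowest at 0.787 ± 0.027. Of 5838 genes with at least 20 CPM in both assays the median ratio was 1.03, so 7 of 8 members were above it, from the 70.5th percentile (Slc4a1) to the 96.4th (Sptb), and Epb41 was at the 33.8th. Of 30 ranked genes from the wider list, 15 were above that median. Coding lengths were not used here, so the ratio compares footprints with RNA of the same gene, and levels are not ranked between genes. Footprints were counted in the coding sequence alone and RNA per gene. Differences between genes in the coding share of the transcript were thus not taken out of these percentiles.

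**Figure D1:**
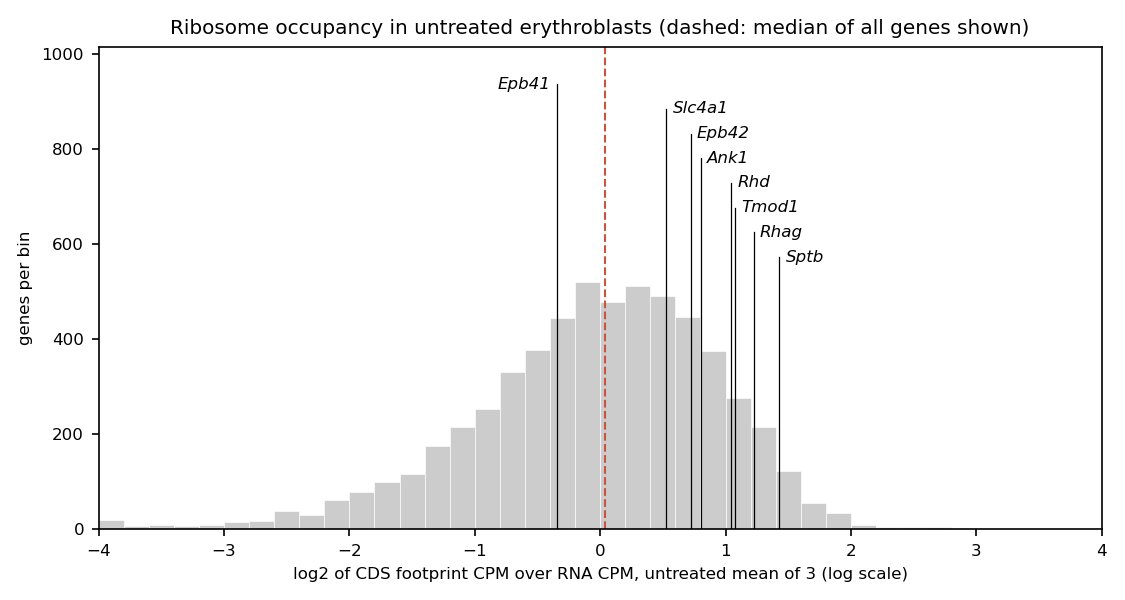
Histogram of the ratio of CDS footprint CPM to RNA CPM in untreated cells for 5838 genes (x axis, log2 of the mean of 3 libraries; y axis, genes per bin; end bins hold all values beyond them), with a line for each member and a dashed line at the median. Epb41 lies left of the median and the 7 other members right of it.

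In RNA no member passed the test. In the edgeR quasi-likelihood fit over 10643 genes, 0 of 8 passed an adjusted p of 0.05, with 0.150% of all genes called, and 0 had an unadjusted p under 0.05, beside 12.4% of all genes; 0 passed with DESeq2. Log2 changes (tunicamycin minus untreated) ran from -0.07 (Epb42) to 0.13 (Sptb), with a median of 0.02 beside 0.00 over all genes tested.

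Sptb RNA read 496, 522 and 513 CPM in untreated libraries 1 to 3 and 528, 543 and 600 CPM after tunicamycin. All 3 treated libraries were above all untreated ones, the change was 0.13 ± 0.06 (log2 ± SE), and the adjusted p by edgeR was 0.413. The RNA groups did not overlap in 1 of 8 members, beside 17.9% of all genes tested, a share near that background.

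The other members overlapped between conditions in RNA. Slc4a1 had 267, 355 and 288 CPM untreated and 264, 313 and 290 CPM treated. Rhag had 1130, 1102 and 1049 CPM untreated against 1126, 1133 and 1144 CPM. In both genes the treated values fell inside or beside the untreated range.

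Ank1 RNA was 363 ± 21.8 CPM untreated and 372 ± 18.1 CPM treated (SD, n = 3), and Epb41 RNA 570 ± 8.38 and 552 ± 22.8 CPM. Rhd RNA was 176 ± 7.15 and 175 ± 9.83 CPM, a change of 0.00 ± 0.07. Epb42 RNA was 49.0 ± 5.99 and 46.0 ± 4.45 CPM, and Tmod1 RNA 40.0 ± 4.45 and 42.9 ± 3.74 CPM. In these 5 genes the untreated and treated libraries overlapped.

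**Figure D2:**
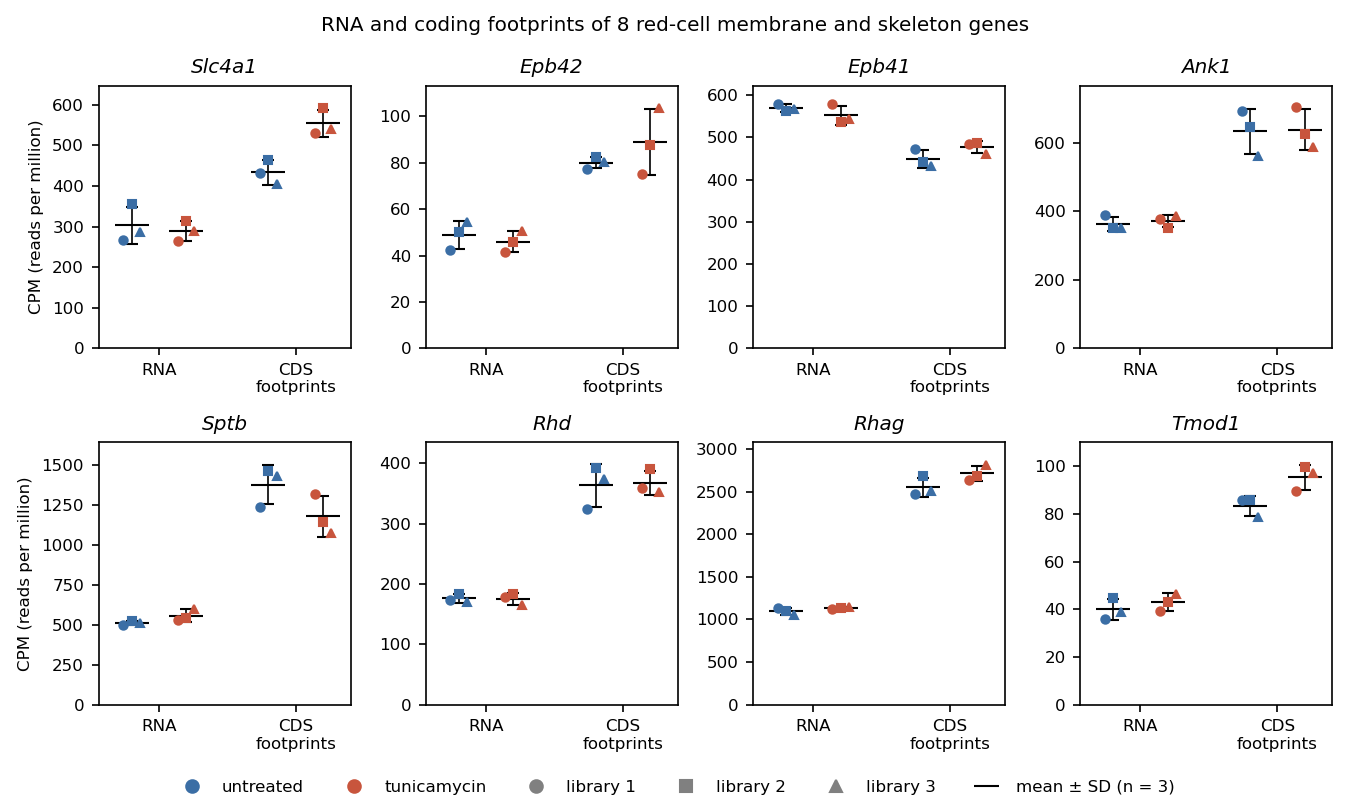
RNA and CDS footprint levels (CPM, y axis from 0, its own scale for each gene) in every library, blue untreated and red tunicamycin, with the mean and SD of 3 libraries as bars. In Slc4a1 the RNA points overlap while the treated CDS points lie above the untreated ones.

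In coding footprints 1 member rose relative to the other coding footprints of its libraries. Slc4a1 had 433, 464 and 404 CPM in untreated libraries 1 to 3 and 530, 593 and 541 CPM after tunicamycin. The lowest treated library was above the highest untreated one. The change was 0.37 ± 0.09 (log2 ± SE) with an adjusted p of 0.0438 by edgeR and 0.0178 by DESeq2. Without scaling, Slc4a1 held 2879, 3004 and 2589 CDS footprints untreated and 2629, 2687 and 2752 treated, which overlapped. The treated libraries held fewer CDS footprints in total, and whether the absolute number of Slc4a1 footprints per cell changed was not tested. Across 9265 genes 239 were called, or 2.58%, and 1 of 8 members was among them.

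This call rested close to the threshold. Leaving out any of the 3 untreated libraries, or treated library 2 or 3, moved the adjusted p for Slc4a1 to between 0.0903 and 0.188, with log2 changes of 0.30 to 0.42. Without libraries 1, 2 or 3 of both treatments it was 0.0787, 0.336 and 0.0963.

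Sptb footprints were lower on average, without passing. Sptb had 1236, 1460 and 1430 CPM untreated and 1316, 1140 and 1072 CPM treated, so the groups overlapped through the libraries numbered 1. The change was -0.21 ± 0.10 with an adjusted p of 0.299, and -0.37 ± 0.11 with 0.0787 when the libraries numbered 1 of both treatments were left out.

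Tmod1 footprints stood at 85.8, 85.7 and 78.7 CPM untreated and at 89.5, 99.5 and 97.1 CPM treated. These groups did not overlap either, at a change of 0.20 ± 0.09 and an adjusted p of 0.288. That made 2 of 8 members without overlap in CDS footprints, near the 21.9% of all genes tested. Rhag, the most abundant member in reads, had 2471, 2682 and 2503 CPM against 2642, 2689 and 2817 CPM, with overlap.

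Epb42 had 80.0 ± 2.46 CPM untreated and 88.8 ± 14.3 CPM treated, and Epb41 448 ± 20.8 and 477 ± 13.9 CPM (SD, n = 3). Ank1 had 634 ± 66.4 and 639 ± 59.9 CPM and Rhd 364 ± 35.1 and 367 ± 20.1 CPM. The median change of the 8 members was 0.10, beside 0.00 over all genes tested. Summed over the members, CDS footprints were 5970 ± 249 CPM untreated and 6114 ± 84.2 CPM treated, and RNA 3105 ± 71.0 and 3169 ± 49.4 CPM.

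**Figure D3:**
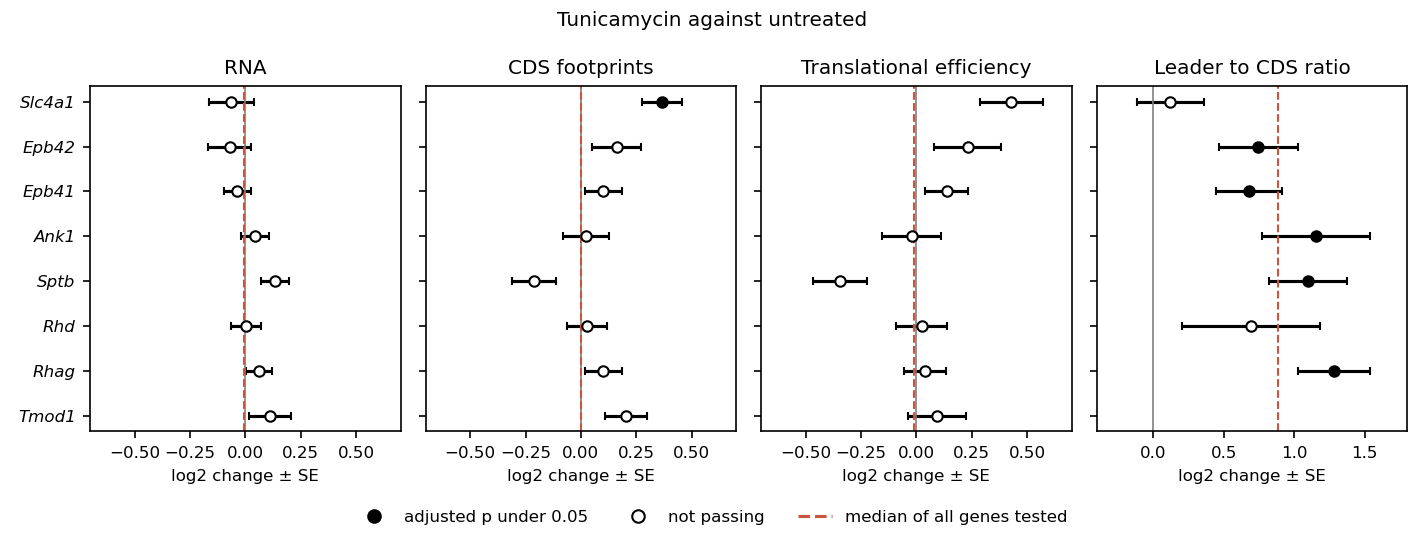
Log2 change under tunicamycin (x axis, point with SE) of each member in RNA, CDS footprints, translational efficiency and the leader to CDS ratio; filled points passed an adjusted p of 0.05 and dashed lines mark the median of all genes tested. Slc4a1 is the only filled point in CDS footprints, and in the leader panel most points lie near the dashed line at 0.89.

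Translational efficiency, the change of CDS footprints beyond that of RNA, was tested over 9218 genes in 1 model of both assays. By edgeR 0 of 8 members passed, with 1.49% of all genes called; 2 members, Slc4a1 and Sptb, had an unadjusted p under 0.05, beside 15.4% of all genes, and 0 passed with DESeq2. The median change was 0.07 beside -0.01 over all genes.

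For Slc4a1 the footprint to RNA ratio was 1.62, 1.31 and 1.40 untreated and 2.01, 1.90 and 1.87 treated, with no overlap. Its change was 0.43 ± 0.14 with an adjusted p of 0.143. With the library number as a replicate block, a term that compares libraries of the same number, the change was 0.42 ± 0.08 with an adjusted p of 0.00475, and Slc4a1 passed. That fit called 9.10% of all genes.

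For Sptb the ratio was 2.49, 2.80 and 2.79 untreated and 2.49, 2.10 and 1.79 treated, again overlapping through the libraries numbered 1. The change was -0.35 ± 0.12 with an adjusted p of 0.167. With the replicate block the adjusted p was 0.0560, which did not pass, and without treated cycloheximide library 1 the change was -0.46 with 0.0387, which passed. Epb41 had ratios of 0.815, 0.787 and 0.760 untreated and 0.837, 0.908 and 0.849 treated, with no overlap, at a change of 0.14 ± 0.10 and an adjusted p of 0.546. The ratios did not overlap in 2 of 8 members, near the 23.5% of all genes tested.

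The replicate block raised the share of genes called to 3.85% in RNA and 9.55% in CDS footprints. Of the members it then passed 0 of 8 in RNA and Slc4a1 alone in CDS footprints (adjusted p 0.00119).

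Footprints in the 5′ leader, the stretch before the annotated start codon, were set against coding footprints of the same library. In untreated cells the leader share of leader plus CDS footprints was 15.9% for Slc4a1, 12.3% for Epb41 and 6.57% for Epb42, all above the median of 2.74% among 8160 genes. It was 1.78% for Sptb, 0.549% for Tmod1, 0.453% for Rhag, 0.449% for Rhd and 0.257% for Ank1. The counting of reads that are leader in one transcript and coding in another is not stated.

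Over all genes the leader share rose from 5.16, 4.07 and 5.47% to 7.86, 7.94 and 10.4%. Of 4417 genes tested, 64.3% passed with a higher leader to CDS ratio after tunicamycin. Of the 7 members tested, 5 passed and were higher, a share near that background. Tmod1, with 0 to 7 leader reads a library, was left out by the filter on low counts.

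Rhag held 90, 72 and 65 leader reads untreated and 131, 129 and 181 treated, and its leader share went from 0.545, 0.413 and 0.403% to 0.989, 1.05 and 1.25%. The groups did not overlap, and the ratio rose by 1.28 ± 0.26 (log2 ± SE, adjusted p by edgeR 0.00168). Sptb went from 1.63, 1.48 and 2.22% to 2.89, 3.42 and 4.98%, a rise of 1.10 ± 0.28 (adjusted p 0.00518). Both rises passed without any single library.

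Ank1 went from 0.173, 0.238 and 0.386% to 0.484, 0.597 and 0.665%, on 8 to 20 leader reads a library. Its rise of 1.16 ± 0.38 had an adjusted p of 0.0182 and was lost without untreated library 1 (0.0761) or treated library 3 (0.0631). Epb41 went from 13.0, 10.4 and 13.4% to 18.1, 16.3 and 20.5%, a rise of 0.68 ± 0.23 (adjusted p 0.0217), lost without untreated library 2 or treated library 1 or 3 (0.0554 to 0.0701). Epb42 went from 7.37, 5.83 and 6.52% to 12.24, 7.46 and 12.02%, a rise of 0.75 ± 0.28 (0.0315), lost without untreated library 2 or 3 or treated library 1 or 3 (0.0614 to 0.114), with DESeq2 (0.0655) and with no filter on low counts (0.0506). In all 3 the untreated and treated shares did not overlap, which made 5 of the 7 members tested, near the 69.3% of all genes tested.

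Slc4a1 and Rhd did not pass. Slc4a1 had leader shares of 14.9, 14.9 and 18.3% untreated and 15.6, 15.9 and 19.9% treated, overlapping, with a change of 0.12 ± 0.23 (adjusted p 0.639) whose percentile among all genes tested was 4.41. Rhd had 0.736, 0.118 and 0.539% against 0.668, 0.619 and 0.885%, on 3 to 16 leader reads, with a change of 0.69 ± 0.49 (0.207).

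The median change in the leader to CDS ratio was 0.75 for the 7 members and 0.89 for all genes tested. Leader and CDS counts were also each scaled to their own total with TMM factors of their own, which takes out this common shift. The median of all genes was then -0.01. Then 5.50% of genes passed as higher and 6.32% as lower. Of the 7 members 0 passed as higher, and Slc4a1 alone passed as lower, at -0.78 ± 0.15 (adjusted p 0.00135). Under that scaling Rhag was at 0.38, Ank1 at 0.26 and Sptb at 0.19, while Rhd (-0.21), Epb41 (-0.22) and Epb42 (-0.16) turned below 0.

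**Figure D4:**
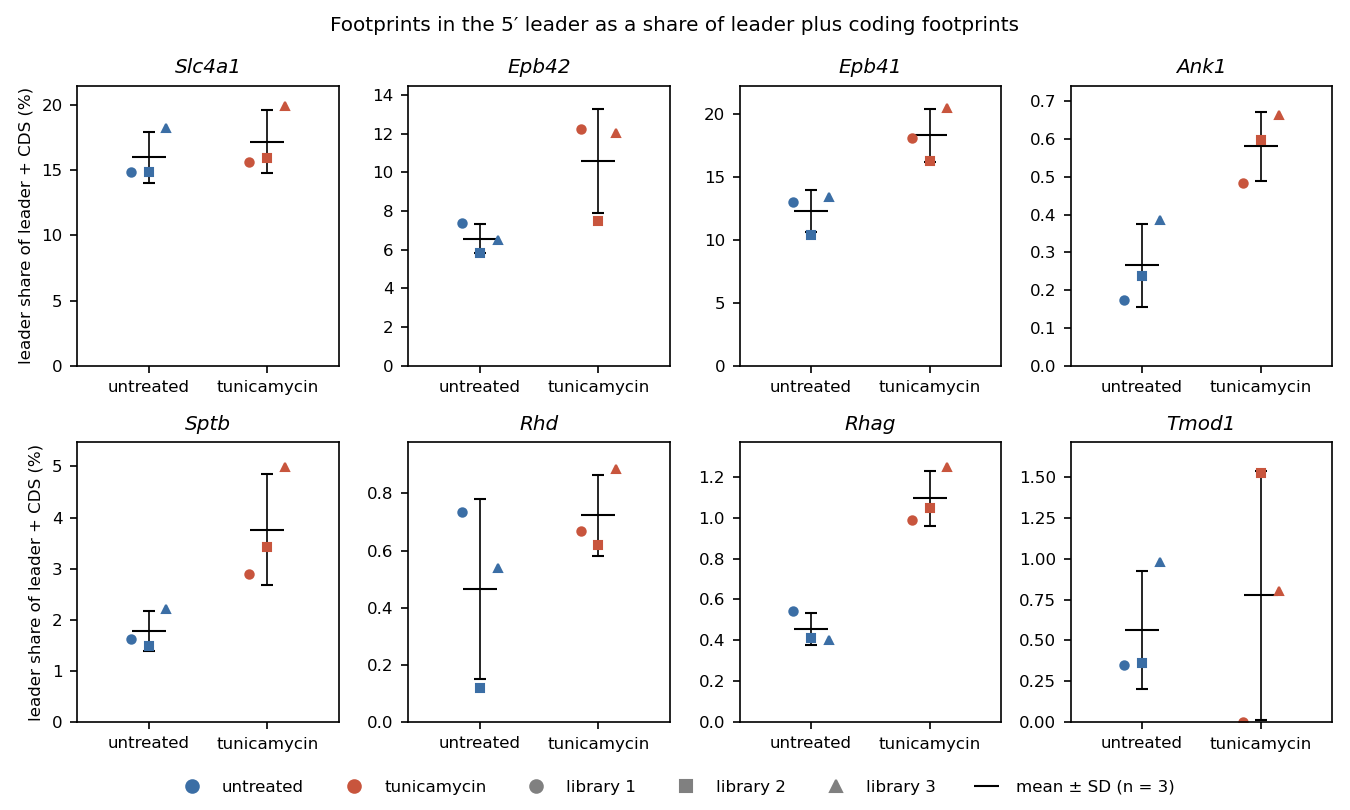
Leader footprints as a percentage of leader plus CDS footprints (y axis from 0, its own scale for each gene) in every cycloheximide library, blue untreated and red tunicamycin, with the mean and SD of 3. In Rhag, Sptb, Ank1, Epb41 and Epb42 the groups do not overlap; in Slc4a1, Rhd and Tmod1 they do.

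Footprints in the 3′ UTR were few, except for Rhag. Rhag held 763, 615 and 466 such reads untreated and 514, 351 and 429 treated, while Sptb held 0 to 3 and Tmod1 0 to 3. Summed over the untreated libraries this was 3.57% of the 3′ UTR plus CDS footprints of Rhag, the 82.0th percentile of 8204 genes, where the median was 0.858%. The 7 other members ranged from 0.0149% (Sptb) to 1.70% (Epb42).

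The ratio of 3′ UTR to CDS footprints could be tested for Rhag, Ank1 and Epb41. By edgeR 0 of 3 passed, with 0.449% of 2004 genes called; 0 had an unadjusted p under 0.05, beside 9.63% of all genes, and 0 passed with DESeq2. The Rhag share was 4.44, 3.42 and 2.82% untreated and 3.77, 2.80 and 2.91% treated, overlapping, with a change of -0.17 ± 0.20.

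Harringtonine reads at the deposited positions were summed per gene. These totals, 446561 to 648169 reads a library, cover only positions with at least 20 reads over the 3 libraries of a treatment and are not sequencing depth. Of 7 members tested 0 passed by edgeR, with 0.0272% of 3681 genes called; 0 had an unadjusted p under 0.05, beside 3.61% of all genes, and 0 passed with DESeq2. Tmod1 had no position.

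Slc4a1 held 556, 717 and 673 reads per 1000000 (RPM) untreated and 512, 680 and 604 treated, so its rise in coding footprints had no counterpart past the threshold here (change -0.13 ± 0.23). Whether the changes in the 2 assays differed was not tested. Rhag held 653, 694 and 498 against 603, 564 and 437 RPM. In both genes the groups overlapped.

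Most Slc4a1 reads fell on neighbouring bases of chromosome 11, at 102361428 and 102361427, which held 1202 and 413 reads over the 6 libraries and lie 3853 and 3854 bases inside the annotated gene (102348820 to 102365281, reverse strand). A further position at 102365105, 176 bases from the gene's start, held 389 reads. In Epb41 (chromosome 4, 131923413 to 132075346) all 7 positions lay 67933 to 75046 bases from the gene's start, the highest at 132007413 with 460 reads. Exon and intron borders were not used here.

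The 2 Rhd positions, 134864588 and 134864589 on chromosome 4, lay 52 and 53 bases from the gene's start with 99 and 103 reads. The 4 positions in Epb42 (chromosome 2, 121017891 to 121036877, reverse strand) lay 192 to 271 bases from its start with 47 to 116 reads. In these genes the reads thus sat close to the annotated start.

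The highest Rhag position, 40811163 on chromosome 17, is the one printed above and lies 64 bases from the gene's start, with 253, 247 and 182 reads untreated and 303, 239 and 175 treated. A smaller one at 40811242, 143 bases from the start, read 23, 17 and 31 untreated and 55, 42 and 43 treated. Its groups did not overlap as RPM, as in 1 of the members' 29 tested positions and 9.53% of all, and the change was 0.67 ± 0.33 (adjusted p 0.9995). In that fit of single positions, added after the values were seen, 0 of 5843 positions passed, or 0.00%, with 212 (3.63%) at an unadjusted p under 0.05 and 1 called by DESeq2. Of the members' 29 tested positions 1 had an unadjusted p under 0.05, Rhag at 40831303 (40, 19 and 11 reads untreated against 15, 14 and 14).

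Late harringtonine positions, far from a gene's start, were frequent in Ank1 and Sptb. In Ank1 (chromosome 8, 22974836 to 23150501, forward strand) 5 of 6 positions and in Sptb (chromosome 12, 76580488 to 76710547, reverse strand) 8 of 12 lay in the last 25% of the gene's span, a boundary set after the values were seen; Rhag had 1 of 4 there and the other members none. Over all genes 669 positions were placed in the last 25% of a gene's span and 7910 before it, fewer together than the 9025 deposited. The late ones held 1.50 to 3.11% of a library's reads at these placed positions.

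In Ank1 these late positions held 29, 116 and 76 reads in the untreated columns numbered 1 to 3 and 17, 70 and 85 in the treated ones. In Sptb they held 48, 152 and 118 reads untreated and 19, 130 and 93 treated. The columns numbered 1 of both treatments were lowest in both genes, while at the remaining positions they were not the lowest of both treatments in either gene: 10, 10 and 6 against 15, 12 and 10 reads in Ank1, and 61, 37 and 52 against 44, 64 and 58 in Sptb.

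Per gene, the harringtonine change was -0.57 ± 0.46 for Ank1 and -0.50 ± 0.39 for Sptb, both with an adjusted p of 0.998. Without the columns numbered 1 it was -0.57 ± 0.31 and -0.38 ± 0.28 (adjusted p 0.996 for both). The sums of both genes include the late positions, and whether reads there came from initiating ribosomes was not tested. Over all genes the late share of reads at placed positions was also lowest in the columns numbered 1. It was 2.21, 3.11 and 2.40% untreated and 1.50, 2.28 and 2.41% treated. What sets these columns apart was not tested.

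**Figure D5:**
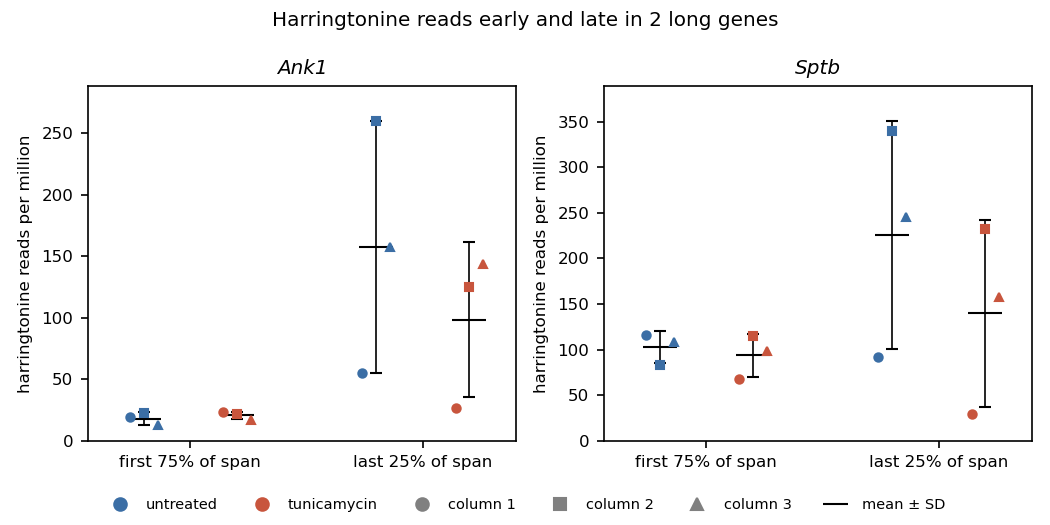
Harringtonine RPM (y axis from 0) of Ank1 and Sptb in the first 75% and the last 25% of the gene's span, by column, blue untreated and red tunicamycin, with the mean and SD of 3. In the last 25% the columns numbered 1 (circles) are the lowest of each treatment; in the first 75% they are not set apart in that way in Ank1.

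A wider list of 32 genes for the red-cell membrane and skeleton gave few calls. By edgeR 0 of 32 passed in RNA, in CDS footprints and in translational efficiency, with 5, 6 and 4 at an unadjusted p under 0.05, near the 12.4, 16.6 and 15.4% of all genes; DESeq2 passed 2 in RNA (Tfrc is one) and 0 in the other comparisons. Among the 4 genes with the smallest p in RNA were Tfrc (the transferrin receptor, 0.21 ± 0.06, adjusted p 0.267), Flot1 (a membrane-raft protein, -0.15 ± 0.06, 0.378) and Kcnn4 (-0.17 ± 0.08, 0.387). With the replicate block Tfrc (adjusted p 0.0396) passed as higher in RNA.

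In CDS footprints the 4 genes with the smallest p included Piezo1, a mechanically gated cation channel, at -0.24 ± 0.09 (adjusted p 0.209), Slc29a1, a nucleoside transporter, at -0.20 ± 0.09 (0.276), and Ermap, an erythroid membrane protein, at 0.20 ± 0.09 (0.278). In translational efficiency they included Piezo1 (-0.27 ± 0.11, adjusted p 0.242), Stom (stomatin, 0.23 ± 0.10, 0.268) and Ermap (0.28 ± 0.12, 0.285), of which Ermap passed with the block (0.0495).

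The leader to CDS ratio passed as higher in 19 of the 24 wider genes tested, beside 64.3% of all genes. The smallest p belonged to Slc29a1 (1.53 ± 0.26), Tfrc (1.53 ± 0.26), Mpp1, a membrane scaffold protein (1.56 ± 0.28), and Stom (1.57 ± 0.29), which were also the 4 that passed when leader and CDS counts were scaled separately. Of the 3′ UTR ratios 0 of 18 passed, and of the harringtonine sums 0 of 25, with 1 and 2 at an unadjusted p under 0.05, beside 9.63 and 3.61% of all genes, and 0 with DESeq2 in either. The smallest p belonged to Bsg (basigin, 0.53 ± 0.25), Icam4 (-0.27 ± 0.22), Slc43a1, an amino acid transporter (0.44 ± 0.38), and Flot1 (-0.38 ± 0.33) in the 3′ UTR ratio, and to Kcnn4 (-1.04 ± 0.45), Actb (β-actin, 0.49 ± 0.22), Icam4 (0.64 ± 0.35) and Add2 (β-adducin, -0.55 ± 0.33) in the harringtonine sums.

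Genes most like Slc4a1 in pattern were sought by Pearson's r over the 12 RNA and cycloheximide libraries, on log2(CPM + 0.5) centred within each assay, among 5837 genes with at least 20 CPM in both. They were Med27 (0.922), Serpinb6a (0.873), Eif1ad (0.870), Serinc3 (0.868) and Crcp (0.863). This is a description only: depth differed between these libraries, and the part of depth or of any batch in r was not tested. Of the other members Tmod1 was nearest at 0.808 and Sptb farthest at -0.451.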

How the data were processed

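Counts of reads per leader, coding sequence and 3′ UTR, and RNA counts per gene, were deposited by the authors without normalization; harringtonine counts were deposited by the authors as reads at single positions. The submitters' processing notes name STAR, HTSeq, edgeR, mm10 and GRCm38; neither versions nor options of the counting are stated there. Members were matched by symbol, with older symbols in the harringtonine files renamed through RefSeq synonyms.

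The members and gene lists were chosen with earlier results of these data known. Every comparison was fitted over all genes with edgeR 4.0.16 (filterByExpr with a minimum count of 10 and a minimum total of 15, TMM, glmQLFit and glmQLFTest, Benjamini-Hochberg over all genes tested, passing at an adjusted p under 0.05) and with DESeq2 1.42.0 as an alternative. Scaling was first done before the filter on low counts; filtering first was adopted after results had been seen, and the earlier order is among the alternatives. The SE is the log2 change over the square root of F. CPM uses library totals and the fits scale by library, so levels and changes are relative to the other reads counted. Leader and 3′ UTR counts were tested against CDS counts as an interaction of feature and treatment with a term for each library. Harringtonine columns could be assigned to treatments but not to single samples. Fits were tested on simulated counts. Leader and 3′ UTR counts were simulated without a common shift, so the leader ratio was not tested under the shift seen in these data. All 8 members, every wider gene that passed and the 4 wider genes with the smallest p in each comparison are named, with the 5 genes most like Slc4a1. Some genes under this rule are not reported here.

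Library numbers may pair the samples. Deviations from the group means were correlated between libraries with the same number, at 0.64, 0.64 and 0.29 in RNA and 0.52, 0.11 and 0.37 in CDS footprints. Each was over 0.1, the second of the CDS values only just. Between libraries of different numbers the correlations ran from -0.65 to 0.25 in RNA and from -0.43 to 0.074 in CDS footprints. Deviations within a group sum to 0 for each gene, so a positive value at the same number forces negative values elsewhere. The values at different numbers are therefore not an independent contrast. The main fits did not use the library numbers, while the fits with a replicate block did. How reads shared by similar genes or overlapping transcripts were assigned is not stated.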

Additional observations from a re-analysis of the deposited data

How the results depend on the processing

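No member passed in RNA, in the 3′ UTR ratio, in harringtonine sums or at single harringtonine positions under any alternative run, replicate block included where fitted. In CDS footprints the count of passing members was 1, between 0 and 1 with a library left out, and 0 without libraries 1, 2 or 3 of both treatments (chosen after seeing the data). In translational efficiency it was 0, between 0 and 1 with a library left out, and 1 with the replicate block, which changed no other member's call. In the leader ratio 5 of 7 passed, all higher; it was between 2 and 5 with a library left out, 4 with DESeq2, 4 of 8 with no filter and 3 of 4 at a minimum count of 50. With separate scaling 0 passed as higher and 1, Slc4a1, passed as lower.

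Several directions turned. With leader counts scaled separately Slc4a1 was at -0.78 (0.12 with shared scaling), Epb41 at -0.22, Rhd at -0.21 and Epb42 at -0.16. Rhd RNA was -0.0014 with DESeq2 size factors, -0.0077 without TMM, -0.0015 with DESeq2, -0.0025 with no filter and -0.0025 with TMM before the filter. Rhd footprints were -0.034 without the libraries numbered 1 of both treatments, Ank1 footprints -0.0088 without those numbered 3, and Epb42 harringtonine reads -0.073 at the highest position (0.17 over all its positions). Leaving out a library gave, for RNA, -0.042 to 0.061 (Rhd) and -0.15 to 0.067 (Slc4a1); for footprints, -0.048 to 0.093 (Rhd) and -0.076 to 0.094 (Ank1); for translational efficiency, -0.13 to 0.049 (Ank1), -0.052 to 0.087 (Rhd), -0.00091 to 0.080 (Rhag) and -0.0088 to 0.16 (Tmod1). It gave -0.016 to 0.24 for the Slc4a1 leader ratio, -0.32 to 0.013 (Rhag, -0.17 with all libraries), -0.54 to 0.073 (Ank1, -0.22) and -0.46 to 0.19 (Epb41, -0.10) for the 3′ UTR ratio, and -0.0019 to 0.26 for Epb42 harringtonine reads. The median untreated footprint to RNA ratio of the members was 1.91, and 1.84 to 1.91 with a library left out. The cause was not tested.

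Scaling before the filter called 13 genes higher in RNA, and 157 higher and 76 lower in footprints. A replicate block was not fitted to harringtonine reads, since their columns carry no sample, and levels per coding length were not computed, since coding lengths were not used here. Leader reads of Tmod1, Rhd and Ank1 were too few for small changes to be seen.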
